A study of Rattus norvegicus with 12 samples.

Results

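NO-naproxen was compared directly with its parent drug, naproxen, in rat liver. The comparison rests on 8 of the 12 arrays of the study: 4 labelled NO-naproxen and 4 labelled naproxen, chosen by their titles alone, which call the arrays of a diet biological replicates. All 12 animals were Sprague Dawley rats kept singly in cages with free food and water, and each diet was given for 7 days. One drug group ate naproxen at 400 mg per kg of diet and the other ate NO-naproxen at 550 mg per kg of diet, while 4 control rats ate the diet without drug. The doses by weight differed and the labels give no drug intake or plasma level, so the compound and its dose cannot be told apart. The labels state neither the age nor the sex of the rats and no time of day for the collection. Whole liver was used, so for every gene below fewer cells of a type and less RNA per cell cannot be told apart.

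Naproxen is a nonsteroidal anti-inflammatory drug that blocks cyclooxygenase 1 and cyclooxygenase 2, encoded by Ptgs1 and Ptgs2, and with them the formation of prostaglandins. NO-naproxen is a nitrate ester of naproxen made to release nitric oxide as well as the drug itself. Nitric oxide binds soluble guanylate cyclase, a dimer encoded by Gucy1a1 and Gucy1b1, which then makes cyclic GMP and activates protein kinase G (Prkg1). The liver receives drugs taken up from the gut and splits esters, conjugates acids and reduces organic nitrates, and it also makes bile acids and much of the body's cholesterol and fat.

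Every value was the deposited linear intensity of a probe set, turned into log2(intensity + 16). A difference is NO-naproxen minus naproxen on that log2 scale, which understates the change of dim probe sets. Probe sets were taken as above background where their mean over the 12 arrays exceeded 6.44, the 95th percentile of 970 probe sets for olfactory and vomeronasal receptors, genes that liver is not known to use. This left 12048 of 19418 probe sets. The hepatocyte genes Alb, Ttr, Serpina1 and Cps1 lay at or above the 99.9th percentile of all probe sets, and Kupffer cell genes such as Clec4f were also above background. The neutrophil genes S100a8, S100a9 and Mpo, the lymphocyte gene Nkg7 and the cholangiocyte gene Epcam were within the olfactory receptor range. The adipose gene Adipoq and the pancreatic genes Prss1 and Ins1 were also within that range. Other genes of non-hepatocyte tissue were above it, among them the cholangiocyte keratin Krt19 (6.66), the muscle genes Acta1 (8.09) and Ckm (7.52), the pancreatic gene Cpa1 (8.18) and the erythroid gene Slc4a1 (9.39), so the bound does not show that other cell types were absent. Median intensities per array lay between 89.8 and 118, and 8 drug arrays limit the precision of everything that follows.

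Liver RNA differed little between the 2 drug groups. No probe set of 19418 passed limma's adjusted p of 0.05 between NO-naproxen and naproxen (0.0%), and the smallest adjusted p was 1.0, while 373 (1.92%) had an unadjusted p under 0.05. Above background, 132 of 12048 probe sets (1.1%) had an unadjusted p under 0.05, of which 80 (0.664%) were higher with NO-naproxen and 52 (0.432%) lower. That share is below the 5.0% that an unadjusted threshold of 0.05 passes on average when nothing differs. The count was 66 (0.548%) without NO-naproxen replicate 1 and 476 (3.95%) without NO-naproxen replicate 3, with none called in either case. With limma's array weights it was 730 (6.06%), above that 5.0%, and again none was called. The unweighted fit of all 12 arrays gave 1372 probe sets (11.4%) for naproxen against control and 1375 (11.4%) for NO-naproxen against control. These comparisons share the control arrays, and in them no probe set passed the adjusted threshold either. With a fold of at least 1.5 added, the criterion of the series' design, the direct comparison held 28 probe sets above background (0.232%), of which 21 (0.174%) were higher and 7 (0.0581%) lower. Against control it held 601 (4.99%) with naproxen and 470 (3.9%) with NO-naproxen. Over all 19418 probe sets 111 (0.572%) met it, and 83 of them lay within the olfactory receptor range.

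The sizes of the differences were small. Over the 12048 probe sets the direct log2 difference had a median of 0.07 and ran from -0.21 at the 5th percentile to 0.34 at the 95th. Its median size without sign was 0.12, against 0.20 for naproxen minus control and 0.23 for NO-naproxen minus control. A difference of 1.5-fold or more was measured for 47 probe sets between the drugs, for 734 between naproxen and control and for 627 between NO-naproxen and control. A difference of 2-fold or more was measured for 2 probe sets, neither of which carried a single gene symbol or had an unadjusted p under 0.05. The median standard error was 0.20, and 95% intervals extended by a median of 0.43 in each direction. For 11716 probe sets (97.2%) the whole interval lay within 2-fold either way, and for 6686 (55.5%) it lay within 1.5-fold.

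**Figure D1:**
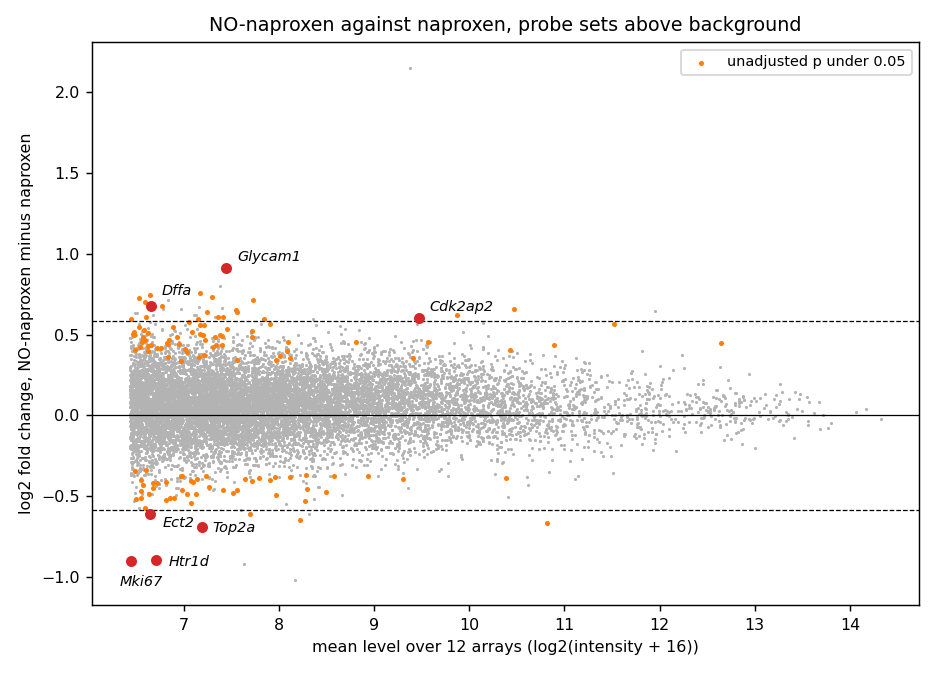
Each point is 1 of the 12048 probe sets above background, with its mean level over 12 arrays on the horizontal axis and the NO-naproxen minus naproxen difference on the vertical axis, both on the log2(intensity + 16) scale. Dashed lines mark 1.5-fold, orange points the 132 probe sets with an unadjusted p under 0.05, and red points the 7 named genes past both limits whose drug groups did not overlap.

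Arrays were also compared in pairs. The median difference without sign between a naproxen and an NO-naproxen array, over the probe sets above background, was 0.26 (16 pairs, from 0.18 to 0.42). Between arrays of the same diet it was 0.31 within NO-naproxen (6 pairs, from 0.21 to 0.46) and 0.29 within naproxen (6 pairs, from 0.23 to 0.33). By this measure rats on different drugs differed no more than rats on the same drug. The measure hardly set drug-fed rats apart from controls either. It was 0.29 between control and naproxen arrays and 0.32 between control and NO-naproxen arrays (16 pairs each), and 0.26 within control (6 pairs). It is therefore no sign that the 2 drugs in particular were alike. The first principal component of the 8 arrays held 42.7% of the variance and did not separate the drugs: NO-naproxen replicate 2 lay at one end and NO-naproxen replicate 3 at the other. Those are also the arrays with the widest and the narrowest spread of signals, with interquartile ranges of 2.62 and 2.07 log2 units. The mean interquartile range was 2.36 ± 0.23 with NO-naproxen and 2.34 ± 0.16 with naproxen (SD, n = 4), a difference of 0.02 with p = 0.914 in a 2-sided exact permutation test, where 0.0286 is the smallest p that 4 against 4 arrays allow. In controls the mean was lower, at 2.10 ± 0.19 (SD, n = 4). What part this narrower spread has in the larger counts and differences against control was not tested.

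More probe sets read higher than lower with NO-naproxen: 7992 of 12048 (66.3%) had a difference above 0. This lean depended on the scaling of the arrays and on which arrays were used. The median difference of 0.07 became 0.02 when each array was centred on its median and 0.00 after quantile normalization. Of the probe sets with an unadjusted p under 0.05, 60.6% were higher in the values as deposited, 35.3% after median centring and 34.6% after quantile normalization. Without naproxen replicate 3 the median difference was 0.016, and 53.8% of probe sets had a difference above 0. In that setting 41.4% of those with an unadjusted p under 0.05 were higher. The share above 0 was 72.2% without naproxen replicate 4.

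The 28 probe sets past the unadjusted limit and 1.5-fold represented 15 genes with a symbol, each by its brightest probe set, 10 higher with NO-naproxen and 5 lower. In 7 of them the 4 NO-naproxen and the 4 naproxen arrays did not overlap. Over all 12048 probe sets such separation occurred for 101 (0.838%), 50 higher and 51 lower. The 7 genes were Dffa, Cdk2ap2 and Glycam1, higher with NO-naproxen, and Mki67, Htr1d, Ect2 and Top2a, lower. None of them passed the adjusted threshold in limma, so they are named as the leading differences and not as genes that changed.

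Dffa (Entrez Gene 114214) encodes the inhibitor of the caspase-activated nuclease that cuts DNA in apoptosis, and it had the smallest unadjusted p. The NO-naproxen arrays read 7.07, 7.03, 7.07 and 6.79, the naproxen arrays 6.53, 6.13, 6.15 and 6.44, and the control arrays 6.85, 6.44, 6.51 and 6.82. The controls lay between the drug groups, with replicates 1 and 4 just above NO-naproxen replicate 4 and replicates 2 and 3 just below naproxen replicate 1. The naproxen mean of 6.31 was below the olfactory receptor bound. NO-naproxen exceeded naproxen by 0.68 ± 0.17 (SE), or 1.6-fold, with a 95% interval from 0.32 to 1.03 and an adjusted limma p of 1.0, as for every other probe set. The difference stayed between 0.62 and 0.75 with each array left out in turn.

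Cdk2ap2 (Entrez Gene 688405), whose product is related to an inhibitor of the kinase CDK2, was the brightest of the 7. The NO-naproxen arrays read 9.67, 9.77, 9.72 and 10.06 and the naproxen arrays 9.49, 9.22, 8.83 and 9.30. In controls it read 9.81, 9.23, 9.21 and 9.30, so that 3 control rats sat with the naproxen group and control replicate 1 with the NO-naproxen group. The direct difference was 0.60 ± 0.19 (1.52-fold, 95% interval from 0.20 to 1.00).

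Glycam1 (Entrez Gene 25258) encodes a mucin-like glycoprotein known as an L-selectin ligand and from milk. Its difference of 0.91 ± 0.36 (1.88-fold, 95% interval from 0.15 to 1.67) fell to 0.39 without naproxen replicate 3. The naproxen arrays read 7.21, 7.34, 5.30 and 7.57, against 7.60, 7.57, 8.04 and 7.85 with NO-naproxen and 7.56, 7.61, 7.83 and 7.87 in controls. The groups were barely apart, since the highest naproxen and the lowest NO-naproxen array both rounded to 7.57. Htr1d (Entrez Gene 25323), a serotonin receptor of nerve endings and vessels, read 6.30, 5.86, 6.58 and 6.64 with NO-naproxen and 6.85, 7.14, 8.02 and 6.94 with naproxen. Its NO-naproxen mean of 6.34 lay below the olfactory receptor bound, and its 4 control arrays ran from 5.31 to 7.35, across both drug groups. The difference for Htr1d was -0.90 ± 0.36 (1.86-fold, 95% interval from -1.66 to -0.13).

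**Figure D2:**
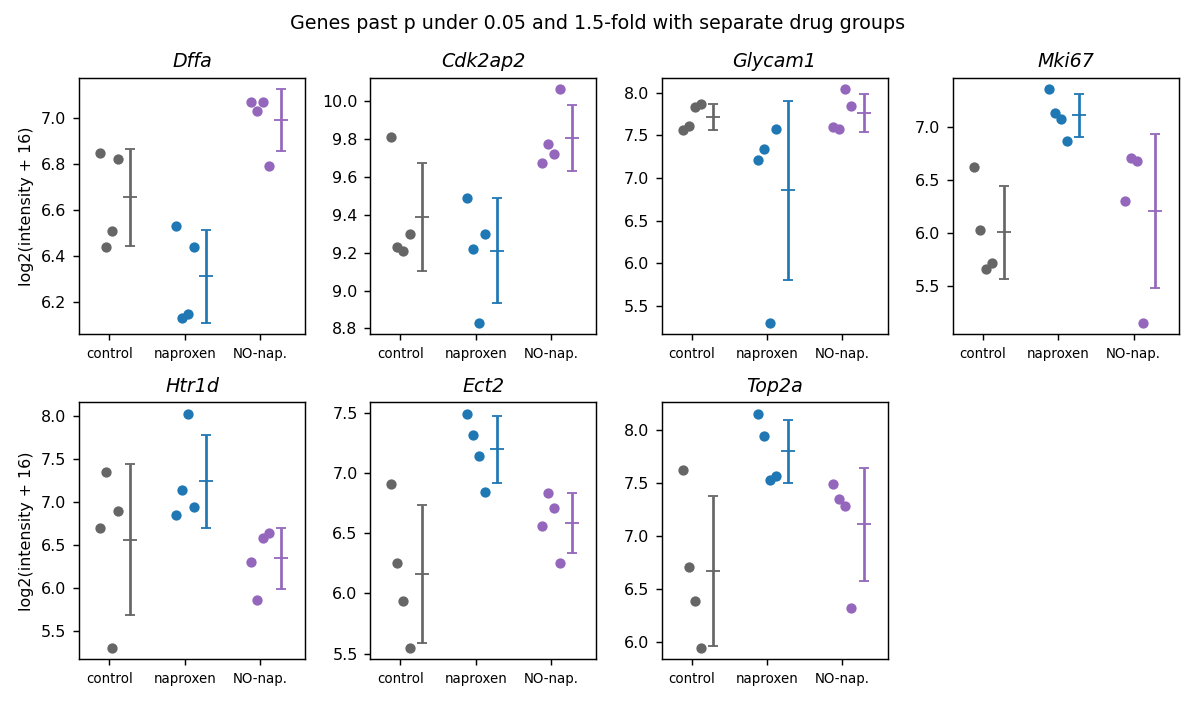
Points are single arrays, 1 per rat, of the 7 named genes past an unadjusted p of 0.05 and 1.5-fold with separate drug groups, on the log2(intensity + 16) scale; horizontal ticks and bars are the mean and SD of 4 arrays. The naproxen and NO-naproxen points do not overlap in any panel, by the rule that chose the genes, while the control points overlap at least one drug group in each.

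The other 8 genes past the same limits had overlapping drug groups. They were Cyp7a1, Cox7b, Cyp26a1, Amdhd1, Plekhg1, St8sia1 and Med12l, higher with NO-naproxen, and Car3, lower. Cyp26a1, Amdhd1 and Car3 fall outside the rule for named genes and were picked here after their values were seen, because they are enzymes known from liver. Cyp26a1, which breaks down retinoic acid, differed by 0.64 ± 0.23 (SE). Amdhd1, an enzyme of histidine breakdown, differed by 0.62 ± 0.27. Car3, the carbonic anhydrase 3 of liver, muscle and fat, differed by -0.66 ± 0.28.

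Genes of mitosis made up 3 of the 4 genes that led on the lower side. Mki67 encodes the Ki-67 protein that coats mitotic chromosomes and marks dividing cells, Top2a the DNA topoisomerase that untangles chromosomes before they part, and Ect2 the exchange factor that starts the cleavage furrow. Promoters of many genes of G2 and mitosis are known to hold CCAAT boxes, bound by NF-Y, and a short element called CHR with the core TTTGAA. Because these 3 members read lower together, the 250 bases before the start of each gene are shown, with every CCAAT or TTTGAA on either strand (ATTGG or TTCAAA when read on the other strand) in capitals. The sequences are those of RefSeq, build GRCr8, all 3 on the minus strand and written 5′ to 3′: Mki67 at chr1:199952594-199952843, Top2a at chr10:84473094-84473343 and Ect2 at chr2:111966627-111966876.
Mki67: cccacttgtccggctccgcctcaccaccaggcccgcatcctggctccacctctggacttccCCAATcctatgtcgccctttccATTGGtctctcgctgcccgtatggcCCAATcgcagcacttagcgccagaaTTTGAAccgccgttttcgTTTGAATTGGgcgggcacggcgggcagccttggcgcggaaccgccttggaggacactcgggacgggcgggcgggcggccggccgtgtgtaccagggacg
Top2a: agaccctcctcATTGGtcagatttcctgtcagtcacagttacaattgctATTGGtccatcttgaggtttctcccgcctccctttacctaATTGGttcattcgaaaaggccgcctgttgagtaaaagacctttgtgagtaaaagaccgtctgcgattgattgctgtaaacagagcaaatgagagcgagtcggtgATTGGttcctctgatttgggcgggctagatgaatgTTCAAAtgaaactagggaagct
Ect2: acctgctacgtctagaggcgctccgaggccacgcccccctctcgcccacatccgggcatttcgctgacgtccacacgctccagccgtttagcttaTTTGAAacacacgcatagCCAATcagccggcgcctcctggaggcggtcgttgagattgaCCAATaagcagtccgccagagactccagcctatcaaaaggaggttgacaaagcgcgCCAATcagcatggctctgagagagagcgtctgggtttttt

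The Mki67 window held 4 CCAAT and 2 TTTGAA matches, with 1 of the latter sharing a base with an ATTGG. The Top2a window held 4 and 1, and the Ect2 window 3 and 1. Of 33469 windows of the same length in the RefSeq table, 34.0% held CCAAT, 16.2% held TTTGAA and 5.87% held both. A match describes these letters and not a bound site. The genes were chosen on their values here, and what part the matches have in the lower readings was not tested.

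Mki67 (Entrez Gene 291234) read 6.30, 6.71, 6.68 and 5.15 with NO-naproxen, 7.36, 7.14, 7.08 and 6.87 with naproxen and 6.62, 6.03, 5.66 and 5.72 in controls. All 4 naproxen rats lay above all 8 others. The NO-naproxen mean of 6.21 and the control mean of 6.0 were both below the olfactory receptor bound. The mean over 12 arrays only just exceeded that bound, so Mki67 passed it only through the naproxen group. The direct difference was -0.90 ± 0.30 (1.87-fold, 95% interval from -1.54 to -0.26), and it was -0.55 without NO-naproxen replicate 4. Against control, naproxen stood 1.11 higher and NO-naproxen 0.21 higher.

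Top2a (Entrez Gene 360243) read 7.49, 7.35, 7.28 and 6.32 with NO-naproxen, 8.15, 7.94, 7.53 and 7.57 with naproxen and 7.62, 6.71, 6.39 and 5.95 in controls. The drug groups were narrowly apart, and control replicate 1 overlapped the naproxen group. The direct difference was -0.69 ± 0.32 (1.61-fold, 95% interval from -1.36 to -0.02), or -0.43 without NO-naproxen replicate 4. Ect2 (Entrez Gene 361921) read 6.56, 6.83, 6.71 and 6.25 with NO-naproxen, 7.49, 7.32, 7.14 and 6.84 with naproxen and 6.91, 6.25, 5.94 and 5.55 in controls, a direct difference of -0.61 ± 0.25 (1.53-fold, 95% interval from -1.14 to -0.08). In both genes naproxen was farther from control (1.13 and 1.04) than NO-naproxen was (0.44 and 0.42). The control mean of Ect2, 6.16, was below the olfactory receptor bound, and its NO-naproxen mean was 6.58. Like Mki67, Ect2 passed that bound only through the naproxen group.

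The cell cycle list as a whole leaned the same way. Of its 41 genes, 32 were measured and 28 lay above background, and 20 of the 28 read lower with NO-naproxen, where 33.7% of all probe sets did. The median difference was -0.20, against 0.07 for all probe sets above background, and it stayed negative after quantile normalization (-0.23), after median centring (-0.25) and with each array left out (from -0.28 to -0.13, the latter without naproxen replicate 2). An unadjusted p under 0.05 was found for 5 members, all lower, where 0.432% of all probe sets above background were lower at that limit: Mki67, Ect2, Top2a, Kif20a and Ccnb1. The first 3 of these were already chosen on the same values. Kif20a and Ccnb1, like Mki67 and Ect2, passed the olfactory receptor bound only through the naproxen group, and their control means lay below it. Of the 5 members only Top2a had NO-naproxen and control means that were both above the bound. The filter thus let in genes that were high with naproxen, and its part in this count was not tested. For all 5 the lowest drug array was NO-naproxen replicate 4, so the members are not independent and the count is a description only. Kif20a, a motor protein of cytokinesis, differed by -0.43 ± 0.18 with separate groups (95% interval from -0.80 to -0.06). Ccnb1, the cyclin that drives entry into mitosis, differed by -0.58 ± 0.25 with overlapping groups (95% interval from -1.11 to -0.04).

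Other members of the list differed less or were less precise. The fifth member with separate groups was Ccne2, a cyclin of the start of DNA replication, at 7.86 ± 0.07 with NO-naproxen and 8.18 ± 0.28 with naproxen (SD, n = 4), and the interval of its difference ran from -0.70 to 0.07. Cdk1, the mitotic kinase, differed by -0.03 with a 95% interval from -0.56 to 0.49. Ccnd1, the cyclin that responds to growth signals, read higher by 0.39 (from -0.08 to 0.86). Cdkn1a, the inhibitor p21, differed by -0.52 (from -1.31 to 0.27). These 4 were added to the named genes after their values were seen. The cell cycle medians against control were 0.25 for naproxen and 0.06 for NO-naproxen, and the summed intensity of the list ran from 4562 to 5923 in NO-naproxen rats, from 5653 to 6409 in naproxen rats and from 4809 to 6281 in controls.

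Fat and sterol genes included 2 with an unadjusted p under 0.05, Srebf1 and Cyp7a1, both higher with NO-naproxen. Srebf1 (Entrez Gene 78968) encodes the transcription factor SREBP-1, which drives fatty acid synthesis. It read 11.62, 11.90, 11.80 and 11.91 with NO-naproxen and 11.24, 11.11, 11.20 and 11.42 with naproxen, without overlap. The controls read 10.69, 11.65, 11.71 and 12.05 and spanned both drug groups. The direct difference was 0.56 ± 0.23 (1.48-fold, 95% interval from 0.07 to 1.05), and it lay between 0.52 and 0.62 with each array left out.

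The fatty acid synthesis and storage list held 22 genes above background, of which 20 read higher with NO-naproxen against 66.3% of all probe sets. Its median difference was 0.13, or 0.08 after either scaling. Elovl6, which lengthens fatty acids, differed by 0.41 ± 0.23, and Acly, which makes the acetyl-CoA they are built from, by 0.26 ± 0.17. Both intervals held 0 (from -0.07 to 0.89 and from -0.10 to 0.61). Elovl6 was 0.25 without naproxen replicate 4 and Acly 0.14 without naproxen replicate 2. The exceptions were the phosphatidate phosphatases Lpin1 (-0.07) and Lpin2 (-0.02), named after their values were seen. Against control the list's median was -0.13 with naproxen and 0.01 with NO-naproxen.

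**Figure D3:**
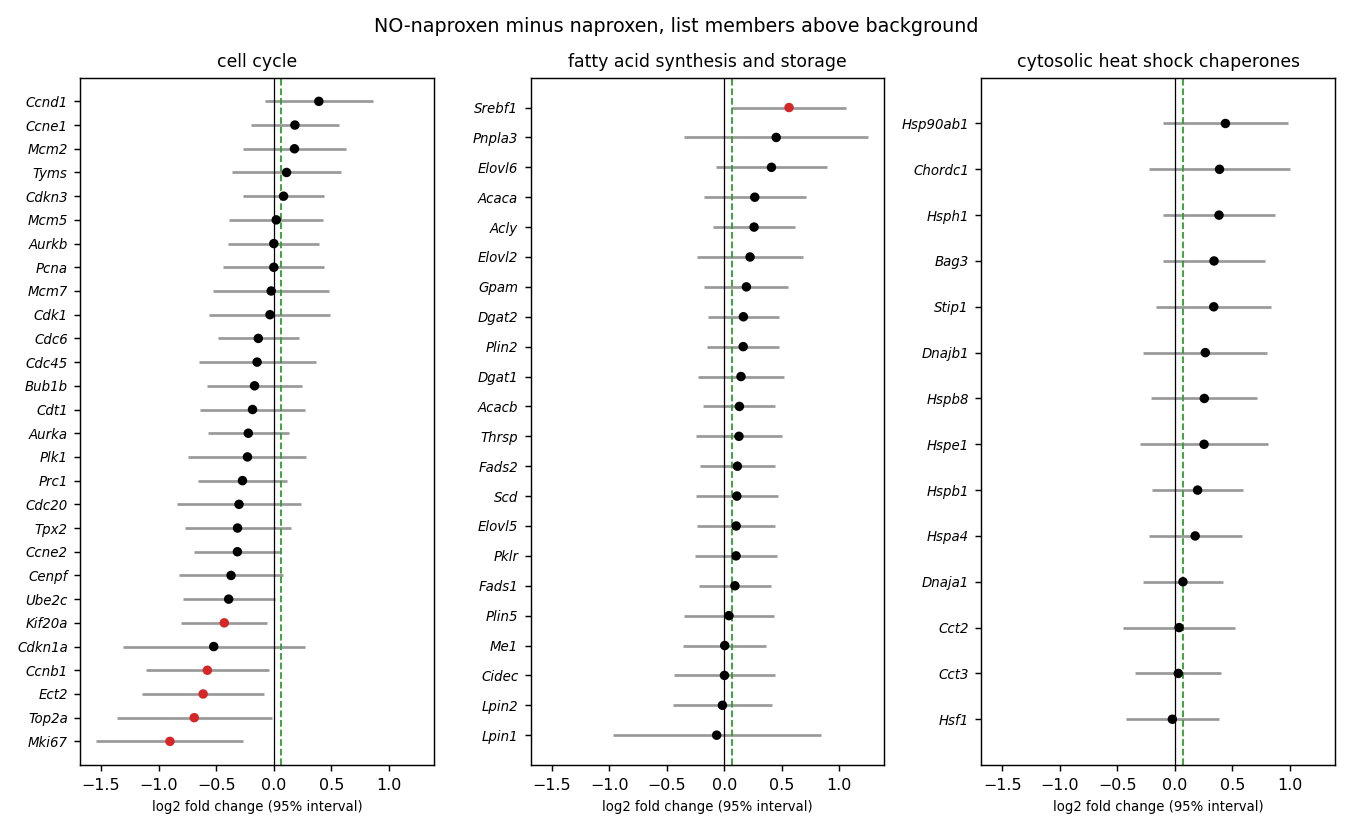
Points are the NO-naproxen minus naproxen log2 differences of list members above background and bars their 95% intervals from limma, with members of an unadjusted p under 0.05 in red and the median of all probe sets above background (0.07) as a dashed green line. In the cell cycle panel 20 of 28 points lie below 0, and in the fatty acid and chaperone panels 20 of 22 and 13 of 14 lie above it, while most single intervals cross 0.

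Cyp7a1 (Entrez Gene 25428), the enzyme that sets the pace of bile acid synthesis, read 9.98, 11.10, 10.98 and 10.18 with NO-naproxen and 10.42, 9.81, 9.76 and 9.63 with naproxen. The controls were tight, at 10.94, 10.97, 10.83 and 11.11. NO-naproxen replicates 2 and 3 were at the control level, while replicates 1 and 4 lay among the naproxen rats. The direct difference was 0.66 ± 0.25 (1.58-fold, 95% interval from 0.13 to 1.18), from 0.48 without NO-naproxen replicate 2 to 0.85 without replicate 1. Of the 13 genes of bile acid synthesis above background 9 read higher, and their median was 0.01, which became -0.03 after either scaling.

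In cholesterol synthesis and uptake 9 of 20 members read higher, below the 66.3% of all probe sets. The list's median was -0.02, or -0.06 after median centring and -0.07 after quantile normalization, and it ran from -0.09 without naproxen replicate 2 to 0.04 without naproxen replicate 1. Sqle, the epoxidase that commits squalene to sterols, came nearest to the limit. It read 8.85, 9.33, 9.25 and 8.43 with NO-naproxen and 9.63, 9.05, 9.33 and 9.67 with naproxen, a difference of -0.45 ± 0.21 (95% interval from -0.91 to 0.00) in overlapping groups. Its controls were the highest of the 3 diets, at 9.70 ± 0.18 (SD, n = 4). Msmo1, a later step, differed by -0.19 (95% interval from -0.57 to 0.20). Without NO-naproxen replicate 4 these differences were -0.27 for Sqle and -0.07 for Msmo1, and that of Msmo1 was -0.29 without naproxen replicate 2.

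Abcg5 and Abcg8, whose products pair to pump sterols into bile, varied widely between rats on one diet. Abcg8 read 5.73, 8.12, 9.23 and 6.31 with NO-naproxen, 9.17, 7.34, 8.93 and 7.64 with naproxen and 7.17, 8.50, 6.07 and 7.43 in controls. Abcg5 read 7.52, 8.65, 9.41 and 7.59, 9.52, 8.28, 9.17 and 8.65, and 7.37, 8.63, 7.15 and 7.80 in the same order of diets. In each diet the 4 rats ranked by one gene fell in the same order by the other. Their direct differences were -0.92 ± 0.66 and -0.61 ± 0.41, with intervals from -2.33 to 0.49 and from -1.48 to 0.25, among the widest of the genes named. Without NO-naproxen replicate 3 they were -1.55 for Abcg8 and -0.99 for Abcg5, and without NO-naproxen replicate 1 they were -0.38 and -0.35. Both genes belong to the list of conjugating enzymes and transporters, in which 13 of 28 members read higher, with a median of -0.001.

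Fatty acid oxidation and PPAR-alpha targets, genes induced when fat is burnt, read higher with NO-naproxen in 11 of 30 members, with a median of -0.02. No member had an unadjusted p under 0.05, where only 1.1% of all probe sets above background did. Cpt1a, which admits fatty acids to mitochondria, read 11.12 ± 0.15 with NO-naproxen, 11.33 ± 0.09 with naproxen and 10.75 ± 0.18 in controls (SD, n = 4). Its direct difference was -0.22 (95% interval from -0.55 to 0.12). In oxidative phosphorylation 17 of 36 members read higher, with a median of -0.01. The member with an unadjusted p under 0.05 was Cox7b, a small subunit of cytochrome oxidase, which read 7.55, 7.48, 6.46 and 7.03 with NO-naproxen, 6.76, 6.48, 6.11 and 6.28 with naproxen and 6.26, 6.61, 5.40 and 5.89 in controls. Cox7b differed by 0.73 ± 0.27 (1.65-fold, 95% interval from 0.15 to 1.30), and its NO-naproxen replicate 3 lay below the 2 highest naproxen rats. Its means with naproxen (6.41) and in controls (6.04) were below the olfactory receptor bound, so Cox7b passed it only through the NO-naproxen group.

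Cytosolic chaperones of the heat shock response read higher with NO-naproxen in 13 of 14 members above background, against 66.3% of all probe sets. None had an unadjusted p under 0.05, where only 1.1% of all probe sets above background did. The median difference was 0.25, or 0.21 after median centring and 0.17 after quantile normalization, against 0.07 for all probe sets as deposited, and it was 0.15 without naproxen replicate 3. Hsp90ab1, an HSP90, read from 8.91 to 9.25 with NO-naproxen and 9.11, 8.61, 7.85 and 9.08 with naproxen, a difference of 0.44 ± 0.26 that was 0.17 without naproxen replicate 3. Hsph1, an HSP110 exchange factor, differed by 0.38 ± 0.23 (0.59 without NO-naproxen replicate 4) and Bag3, a co-chaperone of HSP70, by 0.34 ± 0.21. Hsf1, the transcription factor of the response, was the exception at -0.02 and was named after its value was seen. Against control the list's median was 0.04 with naproxen and 0.24 with NO-naproxen, and the naproxen group held the lowest summed intensity, from 7959 to 11069 against 8951 to 12882 with NO-naproxen and 9087 to 10946 in controls.

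In the unfolded protein and integrated stress response list, which holds the chaperones of the endoplasmic reticulum, 16 of 21 members read higher against 66.3% of all probe sets. The median was 0.09, against 0.07 for all probe sets, and it was 0.05 after median centring, 0.04 after quantile normalization, 0.015 without naproxen replicate 3 and 0.15 without naproxen replicate 4. Manf, a secreted factor induced when proteins misfold, read 10.14, 10.04, 9.66 and 9.56 with NO-naproxen and 9.49, 9.44, 9.10 and 9.57 with naproxen. Its difference of 0.45 ± 0.21 had a 95% interval from 0.01 to 0.89, and the groups overlapped only at replicate 4 of each. Dnajc3 and Hspa5, a co-chaperone and the HSP70 of the endoplasmic reticulum, differed by 0.37 ± 0.20 (0.25 without NO-naproxen replicate 1) and 0.30 ± 0.17. The mean of Hspa5 was 12.73 with NO-naproxen, 12.74 in controls and 12.43 with naproxen.

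The nitrate ester is the structural difference between the 2 drugs, and the genes that make, sense and clear nitric oxide were examined for that reason. None of 26 genes of nitric oxide synthesis and cyclic GMP signalling above background had an unadjusted p under 0.05 or separate groups, and at the shares of all probe sets (1.1% and 0.838%) fewer than 1 of 26 would, so these counts do not set the list apart. The list's median was 0.10, with 19 of 26 members higher, and it was 0.06 after median centring, 0.04 after quantile normalization and 0.05 without naproxen replicate 3. The synthase genes Nos2 (inducible) and Nos3 (endothelial) read 6.51 ± 0.40 against 6.14 ± 0.64 and 6.94 ± 0.11 against 6.84 ± 0.17 for NO-naproxen against naproxen (SD, n = 4). The intervals of their differences ran from -0.42 to 1.16 and from -0.22 to 0.42. Without naproxen replicate 3 the differences were 0.07 for Nos2 and 0.05 for Nos3, and that of Nos3 was 0.16 without naproxen replicate 4.

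Of the receptor of nitric oxide, the subunit Gucy1a1 read 8.12, 8.11, 7.33 and 7.74 with NO-naproxen, 7.95, 7.13, 7.65 and 7.11 with naproxen and 7.15, 7.78, 6.44 and 6.66 in controls. Its difference was 0.37 (95% interval from -0.24 to 0.97), and that of its partner Gucy1b1 was 0.21 (from -0.27 to 0.69). Prkg1, the effector downstream, differed by 0.22 (from -0.22 to 0.66), or 0.08 without naproxen replicate 3. Gucy1b1 was 0.12 without NO-naproxen replicate 2 and 0.39 without naproxen replicate 1. These intervals still allow a difference of 1.5-fold, and for Gucy1a1 of nearly 2-fold.

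Enzymes that reduce organic nitrates or S-nitrosothiols read higher in 9 of 22 members, with a median of -0.02. None had an unadjusted p under 0.05, where 1.1% of all probe sets above background did. That share is too small for this count to set the list apart. Aldh2, the mitochondrial aldehyde dehydrogenase that releases nitric oxide from nitroglycerin, read 11.71, 11.68, 12.36 and 11.63 with NO-naproxen and 11.64, 12.19, 11.87 and 12.26 with naproxen. Its interval ran from -0.59 to 0.30, and its difference of -0.15 was -0.32 without NO-naproxen replicate 3 and -0.06 without naproxen replicate 4. Gstk1, a mitochondrial glutathione transferase, read higher by 0.33 (from -0.10 to 0.75). For all 22 members the 95% interval lay within 2-fold either way, as it did for 97.2% of all probe sets above background.

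Ptgs1 and Ptgs2 are the targets of the naproxen moiety itself. Ptgs1 read 8.65 ± 0.25 with NO-naproxen and 8.53 ± 0.23 with naproxen (SD, n = 4), a difference of 0.11 (95% interval from -0.27 to 0.49). Ptgs2 read 7.04, 7.02, 7.50 and 7.15 against 7.08, 7.18, 6.61 and 7.49, a difference of 0.09 (from -0.40 to 0.57). Both signs turned with 1 array left out, Ptgs1 without NO-naproxen replicate 2 and Ptgs2 without naproxen replicate 3. In controls Ptgs1 read 8.27 ± 0.18 and Ptgs2 7.58 ± 0.43 (SD, n = 4). Of 21 prostaglandin genes above background 13 read higher, with a median of 0.06 that turned to -0.02 after quantile normalization. All 21 intervals lay within 2-fold, as did 97.2% of those of all probe sets above background.

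Of 20 targets of NRF2, the sensor of electrophiles, 13 read higher, and the median of 0.02 turned to -0.02 after either scaling. Hmox1, the heme oxygenase that nitric oxide donors are known to induce, read 8.39, 8.75, 8.31 and 8.34 with NO-naproxen, 8.51, 8.59, 7.85 and 8.22 with naproxen and 8.10, 7.83, 7.69 and 7.92 in controls, and its direct difference was 0.16 (95% interval from -0.24 to 0.56), or 0.01 without naproxen replicate 3. Nqo1, a quinone reductase, differed by -0.22 (from -0.60 to 0.15), or -0.14 without NO-naproxen replicate 4. Of 28 cytochrome P450 and drug-sensing receptor genes 22 read higher, with a median of 0.03 that became -0.01 after either scaling.

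Cyp3a2, a P450 induced by many drugs, read 7.85 ± 0.57 with NO-naproxen, 7.57 ± 0.29 with naproxen and 6.72 ± 0.68 in controls (SD, n = 4), and the direct interval ran from -0.39 to 0.95. Its difference of 0.28 was 0.01 without NO-naproxen replicate 2. Cyp2c11, a P450 of adult male rat liver, differed by -0.17 (from -0.85 to 0.51), with a sign that turned without naproxen replicate 4. Cyp1a1, the target of the aryl hydrocarbon receptor, was within the olfactory receptor range in all 3 diets, with group means between 6.02 and 6.17. The glucocorticoid receptor gene Nr3c1 read higher by 0.42 (from -0.13 to 0.96), and Hamp, the iron hormone hepcidin, by 0.28 (from -0.21 to 0.77). Nr3c1 was 0.19 without NO-naproxen replicate 1, and Hamp was 0.11 without NO-naproxen replicate 4 and 0.53 without NO-naproxen replicate 3.

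Among clock genes, the means of Nr1d1 with both drugs lay above control and those of Per2 below it. Nr1d1, the repressor REV-ERB-alpha, read 8.09, 9.97, 10.53 and 8.99 with NO-naproxen, 9.12, 9.62, 9.83 and 8.99 with naproxen and 8.49, 7.42, 7.26 and 7.51 in controls. Its mean stood 1.73 above control with NO-naproxen and 1.72 with naproxen, on the same control arrays, and the direct difference was 0.01. The interval of that difference, from -0.87 to 0.89, was wide, the sign turned after either scaling, and the NO-naproxen rats ranged from 8.09 to 10.53. Per2, a period gene, read 7.19 ± 0.41 with NO-naproxen, 6.76 ± 0.42 with naproxen and 8.18 ± 0.69 in controls (SD, n = 4), a direct difference of 0.43 (from -0.22 to 1.09), or 0.25 without naproxen replicate 3. Of 19 clock genes 16 read higher with NO-naproxen, with a median of 0.08, or 0.03 after either scaling. None had an unadjusted p under 0.05, where only 1.1% of all probe sets above background did. With the time of collection not stated, what part it has in the clock genes was not tested.

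**Figure D4:**
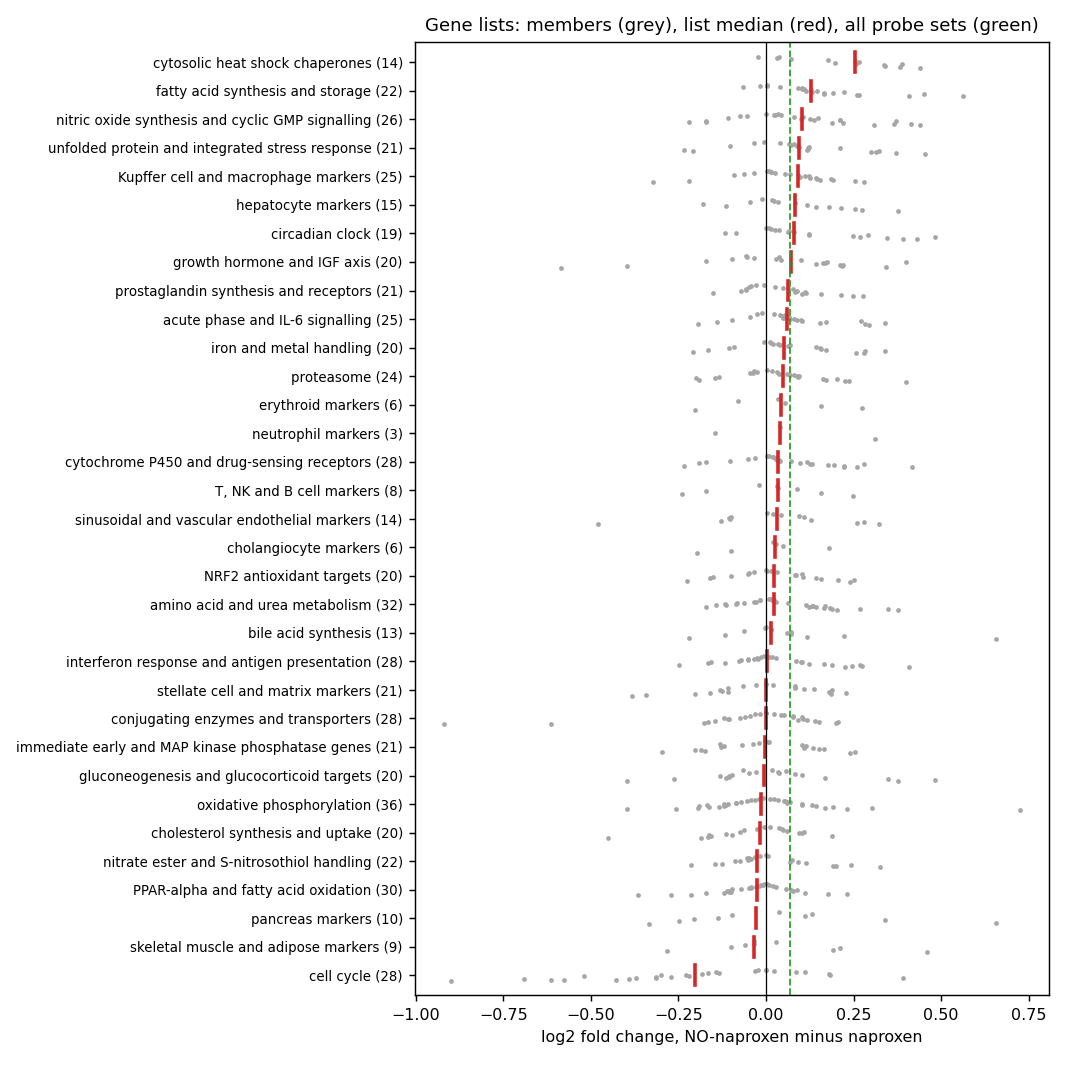
Grey points are the NO-naproxen minus naproxen log2 differences of the members of each of 33 gene lists above background (their number in brackets), red bars the list medians and the dashed green line the median of all probe sets above background (0.07). The cell cycle list has the lowest median (-0.20) and the cytosolic heat shock chaperones the highest (0.25), and the other medians lie between -0.03 and 0.13.

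Cell type markers were compared in the same way. Hepatocyte markers had a median difference of 0.08 over 15 genes, with a summed intensity from 98938 to 111332 in NO-naproxen rats and from 94219 to 101569 in naproxen rats. Kupffer cell and macrophage markers read higher in 20 of 25 genes, with a median of 0.09 that became 0.00 after quantile normalization and -0.02 without NO-naproxen replicate 2, and summed from 14669 to 21706 against 14394 to 18764. Stellate cell and matrix markers had a median of 0.00 over 21 genes. Des, the desmin of stellate and muscle cells, differed by -0.38 (95% interval from -0.79 to 0.02), or -0.24 without NO-naproxen replicate 1. Lymphocyte markers had a median of 0.03 over 8 genes, and neutrophil markers rested on 3 genes above background. Their part in the differences above was not tested.

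A pair of such genes, one a cell type marker and one of antigen presentation, had an unadjusted p under 0.05. Clec4g, a lectin of liver sinusoidal endothelium, read 7.28, 7.66, 7.45 and 7.13 with NO-naproxen, 7.89, 7.85, 7.98 and 7.72 with naproxen and 8.02, 6.81, 7.27 and 7.16 in controls. The drug groups did not overlap, and the difference was -0.48 ± 0.22 (1.39-fold, 95% interval from -0.95 to -0.01), while the 14 endothelial markers had a median of 0.03. Ciita, the master regulator of class II antigen presentation, read 6.83, 7.09, 7.32 and 7.16 with NO-naproxen, 6.52, 6.68, 6.56 and 7.01 with naproxen and 7.32, 6.88, 7.19 and 7.61 in controls, a difference of 0.41 ± 0.19 (95% interval from 0.01 to 0.81) in overlapping groups. In the 33 lists, every member above background with an unadjusted p under 0.05 is named above. Of all 12048 probe sets above background 1.1% had such a p, and the number of such members in the lists is not read as a result.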

How the data were processed

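Liver RNA of 12 rats was hybridised after removal of ribosomal RNA and biotin labelling with whole-transcript reagents, per the labels' protocols. The authors deposited 1 linear probe set intensity for each of 19418 probe sets and 12 arrays. The submitters' processing notes name build rn4 and Affymetrix Expression Console 1.1.1. The probe summary and the scaling of arrays were not given in the sources used here. The planned tests assumed log2 values, so 16 was added before log2. Of the probe sets, the platform annotation gave 13327 a single symbol, 620 more than one and 5471 none, and 13232 matched the RefSeq table by Entrez identifier with 0 symbols altered. Where a gene had several probe sets (102 genes), the brightest stood for it.

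The 12 arrays entered 1 linear model in limma 3.58.1 under R 4.3.3 (lmFit, eBayes, 2-sided) with diet as the only term. P-values were adjusted by Benjamini-Hochberg over all probe sets and called at 0.05. Gene lists were described by counts and medians without a test. The members, lists and tests were chosen with earlier results of these data known. Named genes were, above background, up to 12 in each direction with the smallest p among those past an unadjusted p of 0.05 and 1.5-fold with separate drug groups, since none was called; from each list described, at most 4 genes of smallest p; and 20 genes linked to drug or liver responses, whatever their values. The fit was tested on simulated data before use. Alternatives were other added constants, scalings, filters, weights, covariates, sets of arrays, the replicate block and leaving out single arrays. Promoter letters came from RefSeq GRCr8, a build other than rn4. Plots were made in Python 3.11.15 with matplotlib 3.10.9.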

Additional observations from a re-analysis of the deposited data

Results flagged for a closer look

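A single rat stood far from the other 3 of its diet in 12 of 144 groups of 4 values examined over the genes named. Chance alone gives about 1 in 20 such groups. In the leading genes, Dffa read 6.79 in NO-naproxen replicate 4 against 7.03 to 7.07 in the other rats of that diet. Cdk2ap2 read 9.81 in control replicate 1 against 9.21 to 9.30. Glycam1 read 5.30 in naproxen replicate 3 against 7.21 to 7.57, the rat on which most of its difference rests. Naproxen replicate 3 also stood apart for Prkg1 (6.70 against 7.21 to 7.32) and for Des (7.45 against 7.06 to 7.12).

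NO-naproxen replicate 3, the array of narrowest spread in its group, stood apart for Nos2 (7.10 against 6.29 to 6.36) and for Aldh2 (12.36 against 11.63 to 11.71). Hsph1 read 9.94 in NO-naproxen replicate 4 against 10.72 to 10.81. Gucy1b1 read 8.53 in naproxen replicate 1 against 7.76 to 7.86. Among control rats, Elovl6 read 9.87 in replicate 1 against 10.41 to 10.48, Per2 read 7.15 in replicate 1 against 8.41 to 8.60, and Prkg1 read 6.99 in replicate 2 against 7.63 to 7.71.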

How the results depend on the processing

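In none of the settings tried was a probe set called, and the smallest adjusted p was 0.779, with limma's array weights. Of the probe sets above background, the 132 at an unadjusted p under 0.05 became 215 with 64 added before log2, 730 with array weights, 426 with array spread as a covariate, and 248 and 47 with the bound at the 75th and 99th percentile of olfactory receptors. With arrays left out in turn this count ran from 66 without NO-naproxen replicate 1 to 476 without NO-naproxen replicate 3; it was 220 without NO-naproxen replicate 4, 267 without naproxen replicate 1, 267 without naproxen replicate 4 and 87 without naproxen replicate 3. With 1.5-fold added, the 28 probe sets above background became 15 after quantile normalization, 6 with 64 added, 187 with array weights, 65 and 12 with the other bounds, and 25 to 162 with arrays left out (162 without NO-naproxen replicate 3, 82 without naproxen replicate 1 and 86 without naproxen replicate 4). Over all probe sets that count was 111, of which 83 lay within the olfactory receptor range, and it became 299 with 1 added, 8 with 64 added, 29 fitted above background alone, 40 without the dimmest 30%, 304 with array weights, 3 at 2-fold, and 98 to 331 with arrays left out. The difference in array spread ran from -0.0679 to 0.117 with drug arrays left out. The cause of these shifts was not tested.

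With the replicate number as a block the 132 became 127, and no probe set was called. No label ties a replicate number to a shared litter or day, and same-numbered drug arrays deviated together in only 1 of 4 numbers (correlations of 0.43, -0.47, -0.30 and -0.27), so the numbers were not taken as pairs. Of 46 genes named by rule 41 kept their sign in every setting. With arrays left out in turn the difference turned sign for Ptgs1 (from -0.003 to 0.196), Ptgs2 (from -0.072 to 0.22), Cyp1a1 (from -0.037 to 0.341), Cyp2c11 (from -0.43 to 0.081) and Nr1d1 (from -0.371 to 0.443). It also turned for Ptgs2 (-0.046) and Nr1d1 (-0.44) with array weights, and for Nr1d1 after quantile normalization (-0.06) and median centring (-0.038). Alternatives were run for 16 of the 33 lists. None of those 16 medians moved beyond the SD of its array medians, but 8 of them turned sign with 1 array left out: those of cholesterol synthesis, PPAR-alpha targets, nitrate handling, prostaglandins, NRF2 targets, oxidative phosphorylation, Kupffer cell markers, and conjugating enzymes and transporters. With 4 arrays a diet, differences within about 0.43 log2 units of the measured one are not resolved for a typical gene.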
